A study of Homo sapiens with 4 samples.

Results

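Chaperones of the endoplasmic reticulum (ER) and genes that act in or signal the unfolded protein response were followed in MOLM-14 cells, a human acute myeloid leukemia line with an activating internal duplication of FLT3. The 40 genes cover folding, disulfide formation, degradation, translocation and COPII export, with the 3 stress sensors and XBP1. They were chosen by function with earlier results of these data known, so comparisons with all genes only describe the list. Of the 40 genes, 38 had a value among 24241 named genes, and PDIA3 and SPCS2 were not analysed here. All 38 passed the filter on dim signals, among 14635 genes tested. Expression was measured on 4 single-channel arrays, 2 for cells treated over 24 hours with rapamycin at 10 nM and 2 for control cells. No vehicle is named for the controls. The growth and treatment protocols, which are the same for both groups, describe cells that carry a doxycycline-inducible short hairpin RNA, scrambled or directed at PIM2, and a 72 hour exposure to 200 ng/ml doxycycline. The design text names rapamycin alone, and the labels do not say which hairpin, if any, each culture carried. The arrays are called biological replicates, but nothing states that they came from separate cultures, so p-values measure the spread between these arrays.

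The ER is where secreted and membrane proteins are folded. HSPA5 (BiP) holds unfolded chains and also keeps the sensors ATF6, ERN1 (IRE1) and EIF2AK3 (PERK) inactive until unfolded protein draws it away. Active ATF6 is cut to a transcription factor, ERN1 splices XBP1 mRNA into the form that encodes an active factor, and EIF2AK3 slows translation. Rapamycin blocks mTORC1, a kinase complex that promotes protein and lipid synthesis. Each probe set gives 1 value per gene and array, so spliced and unspliced XBP1 mRNA were not separated, and protein, splicing and cleavage of the sensors were not measured.

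Of 12 markers fixed for the leukemic myeloid line, 10 had values and all 10 were above the filter minimum of 4.86 log2 units, at 6.44 to 11.8 in the rapamycin arrays and 6.63 to 11.9 in the control arrays. FLT3 stood at 10.84 and 10.71 log2 units with rapamycin and at 10.59 and 10.48 in controls. Both measured erythroid markers were below the filter minimum, as were 3 of 4 T cell markers and 2 of 4 B and plasma cell markers. CD8A, CD79A, MZB1, COL1A1, COL1A2 and KRT19 had means above it, with single arrays at up to 6.57 log2 units with rapamycin and 6.53 in controls. MZB1 read 5.15 and 4.77 in the rapamycin arrays, the second below the minimum. EPCAM was below it, at 3.74 and 3.71 with rapamycin and 3.74 and 3.77 in controls. Of the markers that could be tested, none passed the test between the groups. Array medians ran from 5.43 to 5.45 log2 units with rapamycin and from 5.38 to 5.44 in controls.

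Promoter sequence is a feature that the choice of members did not use. ATF6 and XBP1 act through the ER stress response element (ERSE), a CCAAT box that binds NF-Y and the letters CCACG spaced 9 bases apart, and through a compact variant, ERSE-II. These elements were described from promoters of ER chaperone genes, several of which are members, so the matches are no independent evidence. RefSeq promoter windows (GRCh38.p14, 250 bases before to 50 after each start) were found for 35 of the 40 members, all but PDIA3, DERL1, DERL3, TRAM1 and SEC24D. The letters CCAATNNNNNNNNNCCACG, searched on both strands, were in windows of 8 members and of 25 of all 27305 genes in the table (0.0916%). ATTGGNCCACG was in windows of 3 members and of 19 of all genes (0.0696%). Both patterns contain a CCAAT box, on 1 strand or the other, and CCACG. These parts alone are common: CCAAT was found for 28 of the 35 members and 39.7% of all genes, and CCACG for 27 members and 42.1% of all genes. The XBP1-type element TGACGTGG was found for HYOU1 and SEC24A, and for 0.927% of all genes. In HYOU1 it overlaps an ERSE-II match on the opposite strand.

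The upstream 250 bases are shown for the 3 members past the test that have a window, because HSPA5 and XBP1 moved in opposite directions while EDEM1 has neither ERSE pattern. The strand is that of the gene, the last base lies just before the start site, and capitals mark the fixed letters of ERSE. The HSPA5 window is chr9:125241344-125241593 (minus strand), the XBP1 window, from the RefSeq start of the 2 in the table that holds the match, is chr22:28800570-28800819 (minus strand), and the EDEM1 window is chr3:5187457-5187706 (plus strand).
HSPA5: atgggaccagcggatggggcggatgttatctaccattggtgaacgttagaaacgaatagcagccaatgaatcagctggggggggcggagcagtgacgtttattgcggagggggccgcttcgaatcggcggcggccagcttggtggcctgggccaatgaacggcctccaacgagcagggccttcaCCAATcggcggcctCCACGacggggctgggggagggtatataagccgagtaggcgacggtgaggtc
XBP1: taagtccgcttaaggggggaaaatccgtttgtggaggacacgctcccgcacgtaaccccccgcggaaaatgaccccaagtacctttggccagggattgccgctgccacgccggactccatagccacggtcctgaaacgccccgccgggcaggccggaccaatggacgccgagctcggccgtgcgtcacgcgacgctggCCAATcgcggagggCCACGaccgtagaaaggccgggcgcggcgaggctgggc
EDEM1: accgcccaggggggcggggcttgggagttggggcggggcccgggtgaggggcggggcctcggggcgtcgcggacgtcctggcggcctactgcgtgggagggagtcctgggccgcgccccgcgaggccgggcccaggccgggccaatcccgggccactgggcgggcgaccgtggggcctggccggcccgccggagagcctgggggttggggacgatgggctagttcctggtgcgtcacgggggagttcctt

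The other ERSE and ERSE-II matches are shown in the orientation of the motif with 5 bases on either side, so that the variable spacer can be compared. HSP90B1 and HYOU1 each hold 2. The coordinates, in the same order, are chr12:103930211-103930239 and chr12:103930316-103930344 for HSP90B1, chr22:49918549-49918577 for CRELD2, chr19:12938379-12938407 for CALR, chr5:179698773-179698801 for CANX, chr2:10812848-10812876 for PDIA6, chr1:236282178-236282206 for ERO1B, chr11:119057269-119057289 and chr11:119057375-119057395 for HYOU1, chr16:56932020-56932040 for HERPUD1 and chr22:21642109-21642129 for SDF2L1.
HSP90B1, ERSE: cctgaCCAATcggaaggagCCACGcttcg
HSP90B1, ERSE: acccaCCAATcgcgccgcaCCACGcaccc
CRELD2, ERSE: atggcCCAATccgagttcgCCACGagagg
CALR, ERSE: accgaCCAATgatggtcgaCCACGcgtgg
CANX, ERSE: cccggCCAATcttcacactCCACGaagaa
PDIA6, ERSE: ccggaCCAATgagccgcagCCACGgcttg
ERO1B, ERSE: ggcggCCAATgaggcgggaCCACGcgggc
HYOU1, ERSE-II: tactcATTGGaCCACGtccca
HYOU1, ERSE-II: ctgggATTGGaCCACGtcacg
HERPUD1, ERSE-II: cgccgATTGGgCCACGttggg
SDF2L1, ERSE-II: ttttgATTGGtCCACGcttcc

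The comparison asks how transcripts for ER folding and quality control differ after mTORC1 inhibition. HSPA5, SEC24D and EDEM1 fell with rapamycin, XBP1 rose, and 34 of the 38 members did not pass the test (limma, two-sided, Benjamini-Hochberg adjusted p under 0.05 over all 14635 genes). Over all genes 1.28% were called, 0.861% as lower and 0.417% as higher with rapamycin. Most fold changes of the members were negative, 32 of 38, and the median over the members was -0.19, against 0.01 over all genes tested. Both rapamycin arrays lay below both control arrays for 28 members, an arrangement seen for 21.8% of all genes. They lay above for 3 members, EDEM3, DERL3 and XBP1, against 24.9% of all genes, and 7 members overlapped. The median moderated standard error was 0.08 for the members and 0.12 for all genes tested. The shares over all genes are therefore no matched baseline for how often the groups separate. The members' fold changes were small, from -0.65 for HSPA5 to 0.44 for XBP1. Fold changes are on the log2 scale, rapamycin minus control, and SE is the moderated standard error. Which members passed changed when single arrays were left out, and the number of genes called over the whole table changed as well. The median over the members was -0.17 without control replicate 2 and -0.20 without rapamycin replicate 1. Without the mean-variance trend in the moderation no member passed, 17 genes were called in all, and HSPA5 had an adjusted p of 0.0842.

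**Figure D1:**
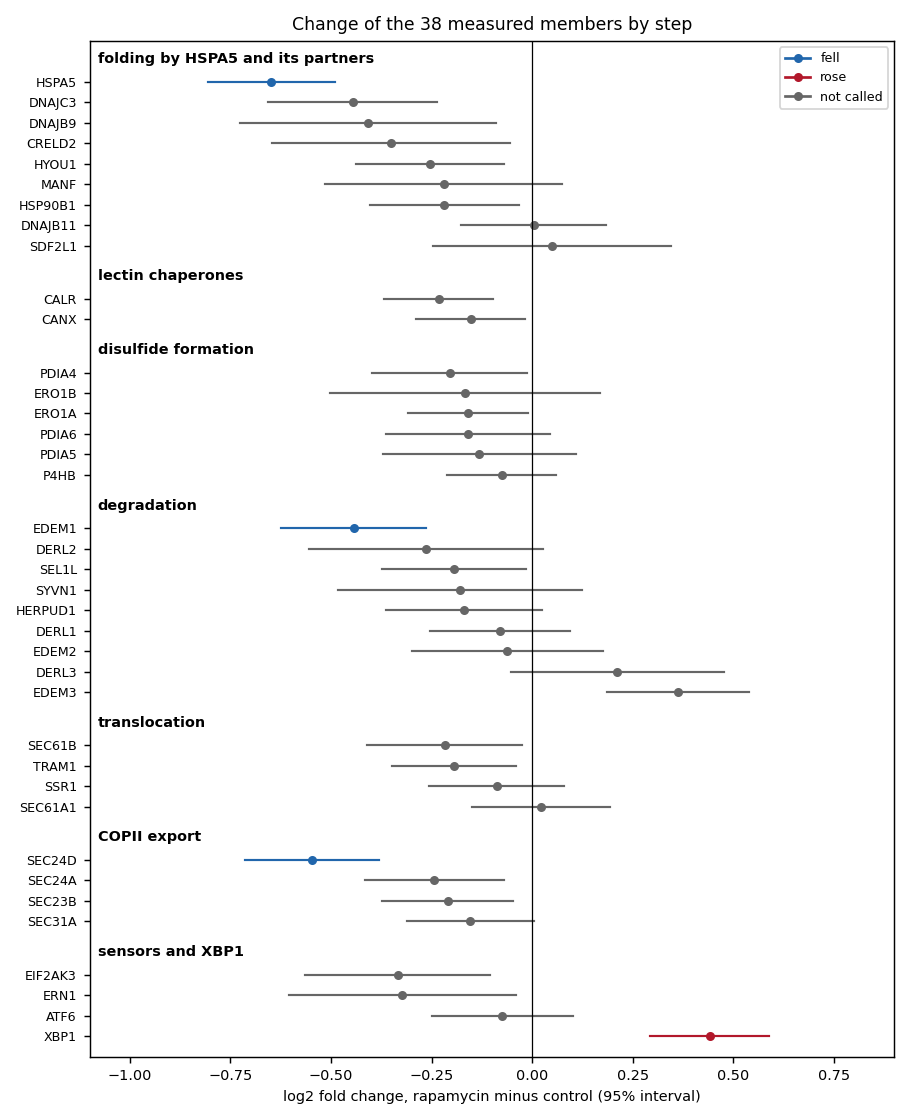
Log2 fold change (rapamycin minus control, x axis) of the 38 measured members grouped by step, with the 95% interval of the limma fit, from 2 rapamycin and 2 control arrays. HSPA5 at -0.65, SEC24D at -0.55 and EDEM1 at -0.44 are drawn as lower, XBP1 at 0.44 as higher, and most other points lie left of 0.

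Among the sensors and their effector, XBP1 moved against the list. XBP1 had 11.79 and 11.92 log2 units in the rapamycin arrays, against 11.42 and 11.41 in the control arrays. Both rapamycin arrays were higher, and the gap between them was wider than that between the controls. The gene rose 1.36-fold, at a log2 fold change of 0.44 with a 95% interval from 0.29 to 0.59 (SE 0.07, adjusted p = 0.0182). The adjusted p was 0.0579 without control replicate 2 and 0.0507 with no filter. EIF2AK3, which slows translation by phosphorylating an initiation factor, had 7.50 and 7.32 log2 units with rapamycin and 7.71 and 7.77 in controls, without overlap (log2 fold change -0.33, SE 0.10, adjusted p = 0.161). ERN1, the kinase and nuclease that splices XBP1 mRNA, stood at 5.57 and 5.68 with rapamycin and at 5.96 and 5.94 in controls (adjusted p = 0.257). ATF6 differed by -0.07 log2 units, with a 95% interval from -0.25 to 0.10. None of the 3 sensors passed the test, and XBP1 was the member with the highest fold change of the 38.

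HSPA5, the main chaperone of the ER lumen, had 9.91 and 9.82 log2 units with rapamycin and 10.53 and 10.50 in controls. The groups were separated by several times the spread within each. It fell 1.57-fold (log2 fold change -0.65, SE 0.07, 95% interval -0.81 to -0.49, adjusted p = 0.00456). The log2 difference between XBP1 and HSPA5 within an array was 1.88 and 2.10 with rapamycin and 0.89 and 0.91 in controls. An exact two-sided permutation test of this difference gives p = 0.333, the smallest that 2 arrays against 2 allow, so it stands as a description. The 2 genes are the members with the highest and lowest fold changes, so a wide gap follows from picking them. HSPA5 works with J-domain proteins and a nucleotide exchange factor, and none of these partners among the members passed. DNAJC3, a J-domain protein that delivers clients to HSPA5, came nearest, at 9.41 and 9.17 log2 units with rapamycin against 9.69 and 9.78 in controls (log2 fold change -0.45, SE 0.09, adjusted p = 0.0585). It passed in 4 of 13 alternative settings, with adjusted p-values from 0.00204 to 0.0416, and over all 13 the adjusted p ran up to 0.319. Its rapamycin arrays differed from each other by about as much as the higher of them did from the nearer control. DNAJB9, a J-domain protein that represses ERN1, stood at 5.61 and 5.90 with rapamycin and 6.10 and 6.23 in controls (log2 fold change -0.41, adjusted p = 0.209, and -0.26 without rapamycin replicate 1).

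DNAJB11, the J-domain protein that works on nascent chains with HSPA5, had overlapping groups. It had 8.74 and 8.70 log2 units with rapamycin and 8.74 and 8.69 in controls, and the 95% interval of its log2 fold change ran from -0.18 to 0.18. SDF2L1, which forms a complex with DNAJB11, also overlapped between the groups, at a log2 fold change of 0.05 with an interval from -0.25 to 0.35. HYOU1, the large HSP70-related exchange factor for HSPA5, had 8.32 and 8.31 log2 units with rapamycin and 8.58 and 8.55 in controls (log2 fold change -0.25, adjusted p = 0.182). HSP90B1 (GRP94), the HSP90 of the ER, had 12.34 and 12.09 with rapamycin and 12.45 and 12.42 in controls (log2 fold change -0.22, adjusted p = 0.246). Its log2 fold change was -0.09 without rapamycin replicate 2 and -0.35 without rapamycin replicate 1. CRELD2 and MANF, small secreted proteins induced by ER stress, stood at -0.35 (adjusted p = 0.244) and -0.22 (adjusted p = 0.469). CRELD2 was at -0.23 without control replicate 1, and MANF at -0.05 without rapamycin replicate 1 and -0.39 without rapamycin replicate 2. The MANF arrays read 6.784 and 7.130 log2 units with rapamycin and 7.134 and 7.220 in controls, so its groups barely missed overlapping. Of these 9 folding members, HSPA5 fell and 7 had both rapamycin arrays below both controls, as did 21.8% of all genes.

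**Figure D2:**
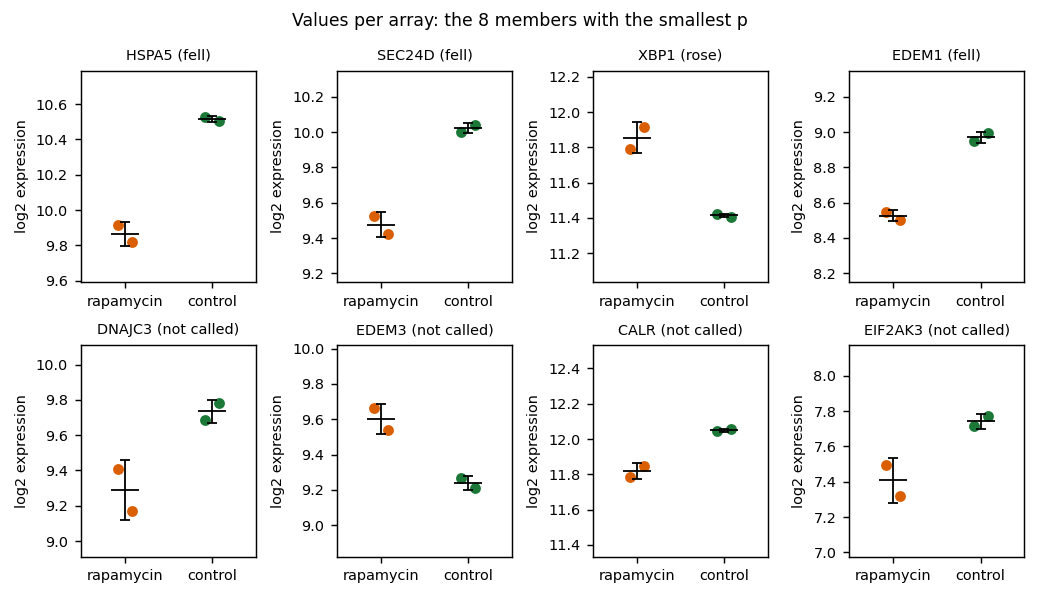
Log2 expression of the 8 members with the smallest p, with a point per array, rapamycin left of control, and a bar and whiskers for the mean and SD of 2 arrays; each y axis spans the same range. HSPA5, SEC24D and EDEM1 lie lower with rapamycin and XBP1 higher, while DNAJC3, EDEM3, CALR and EIF2AK3 are separated but did not pass the test.

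The lectin chaperones hold glycoproteins that carry a trimmed sugar. CALR, the soluble member, had 11.79 and 11.85 log2 units with rapamycin and 12.04 and 12.05 in controls (log2 fold change -0.23, SE 0.06, adjusted p = 0.108). CANX, the membrane-bound member, had 11.62 and 11.58 with rapamycin and 11.76 and 11.75 in controls (log2 fold change -0.15, SE 0.06, adjusted p = 0.262). Neither passed, and in both genes the rapamycin arrays lay below both controls with little spread within a group. Over all genes, 21.8% had both rapamycin arrays below both controls.

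Disulfide bonds are made by protein disulfide isomerases, which ERO1A and ERO1B reoxidise. None of the 6 measured members passed, and all 6 log2 fold changes lay between -0.21 and -0.08. PDIA4 gave the lowest, with 8.06 and 8.01 log2 units with rapamycin and 8.24 and 8.25 in controls (adjusted p = 0.292). P4HB, also a subunit of collagen prolyl hydroxylase, was nearest 0, with an interval from -0.21 to 0.06. PDIA5 and PDIA6 stood at -0.13 and -0.16. ERO1A had 10.38 and 10.34 log2 units with rapamycin and 10.52 and 10.52 in controls (log2 fold change -0.16, adjusted p = 0.286). ERO1B was at -0.17 with overlapping groups, as its rapamycin arrays read 6.94 and 6.54 log2 units and its control arrays 6.80 and 7.01. Its log2 fold change was 0.03 without rapamycin replicate 2 and -0.37 without rapamycin replicate 1.

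Among genes of ER-associated degradation, the EDEM proteins, which trim mannose from misfolded glycoproteins, had fold changes of both signs. EDEM1 had 8.55 and 8.50 log2 units with rapamycin and 8.95 and 8.99 in controls. It fell 1.36-fold, at -0.44 on the log2 scale with a 95% interval from -0.62 to -0.27 (SE 0.08, adjusted p = 0.0375), but its adjusted p was 0.139 without control replicate 1, 0.303 without control replicate 2 and 0.0849 with no filter. EDEM3 was higher in both rapamycin arrays, at 9.66 and 9.54 log2 units against 9.27 and 9.21 in controls, and missed the threshold (log2 fold change 0.36, SE 0.08, adjusted p = 0.0638). It passed in 5 of 13 alternative settings, with adjusted p-values from 0.0166 to 0.0482, and over all 13 the adjusted p ran up to 0.422. EDEM2 stood at -0.06, with an interval from -0.30 to 0.18. Its groups barely missed overlapping, at 6.844 and 6.908 log2 units with rapamycin and 6.911 and 6.965 in controls. The log2 difference between EDEM3 and EDEM1 within an array was 1.12 and 1.04 with rapamycin, against 0.32 and 0.22 in controls (exact two-sided permutation p = 0.333, the smallest this design allows). EDEM3 had the highest and EDEM1 the lowest fold change of the EDEM genes, so a wide gap follows from picking them.

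The membrane part of the degradation machinery did not pass the test. SEL1L, which holds the ubiquitin ligase SYVN1 (HRD1) in place, had 8.92 and 8.87 log2 units with rapamycin and 9.13 and 9.04 in controls (log2 fold change -0.19, adjusted p = 0.281). SYVN1 itself overlapped, at 6.84 and 7.23 with rapamycin and 7.24 and 7.19 in controls, and its log2 fold change was 0.01 without rapamycin replicate 1. HERPUD1, a stress-induced partner of that ligase, stood at -0.17 (adjusted p = 0.392), and at -0.10 without rapamycin replicate 1. The derlins, which help move substrates across the membrane, had no common direction: DERL1 stood at -0.08, DERL2 at -0.26 and DERL3 at 0.21. The arrays of DERL2 read 8.11 and 7.69 log2 units with rapamycin and 8.16 and 8.17 in controls, and its log2 fold change was -0.06 without rapamycin replicate 2 and -0.47 without rapamycin replicate 1.

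Entry into the ER gave no call among 4 measured members. SEC61A1, the channel subunit, overlapped between the groups, with a log2 fold change of 0.02 and an interval from -0.15 to 0.19. SEC61B, a small subunit of the same channel, had 8.50 and 8.54 log2 units with rapamycin and 8.67 and 8.80 in controls (log2 fold change -0.22, adjusted p = 0.262). TRAM1, a membrane protein beside the channel, stood at -0.19 (adjusted p = 0.216). SSR1, a translocon-associated subunit, stood at -0.09 with overlapping groups.

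COPII coats carry cargo out of the ER, and SEC24 isoforms select the cargo. SEC24D had 9.53 and 9.42 log2 units with rapamycin and 10.00 and 10.04 in controls. It fell 1.46-fold (log2 fold change -0.55, SE 0.07, 95% interval -0.71 to -0.38, adjusted p = 0.0115). Leaving out control replicate 2 took its adjusted p to 0.0719. SEC24A had 8.88 and 8.84 with rapamycin and 9.09 and 9.12 in controls (log2 fold change -0.24, SE 0.08, adjusted p = 0.172). SEC23B, the partner that forms the inner coat with SEC24, stood at -0.21 (adjusted p = 0.208), and SEC31A of the outer coat at -0.15 (adjusted p = 0.336), or -0.09 without rapamycin replicate 2. All 4 had both rapamycin arrays below both controls, as did 21.8% of all genes. The log2 difference of SEC24A minus SEC24D within an array was -0.65 and -0.58 with rapamycin, against -0.91 and -0.93 in controls, which describes an unequal change and was not past any threshold (exact two-sided permutation p = 0.333, the smallest possible). SEC24D had the lowest fold change of this step, so a difference follows from picking it.

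Of the 11 members with ERSE or ERSE-II letters, 8 had both rapamycin arrays below both controls and 1 had them above. Over all genes these arrangements were seen for 21.8% and 24.9%. The 11 included 1 that fell, HSPA5, and 1 that rose, XBP1, against 0.861% and 0.417% of all genes. The median log2 fold change of the 11 was -0.17. The 23 measured members whose windows hold neither pattern had a median of -0.19, with 18 below both controls, 1 above and 1 that fell, EDEM1. The exact ERSE match of HSPA5 starts 66 bases before the start site and that of XBP1 52 bases before it. Near matches were not searched for, so windows with neither pattern may still hold some. HSP90B1, with 2 ERSE matches, stood at -0.22, and SDF2L1, with an ERSE-II match, at 0.05. Outside the members, 33 genes hold either pattern, and 19 of them were tested. None of the 19 passed, 6 had both rapamycin arrays below both controls and 4 had them above, and their median was -0.03.

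**Figure D3:**
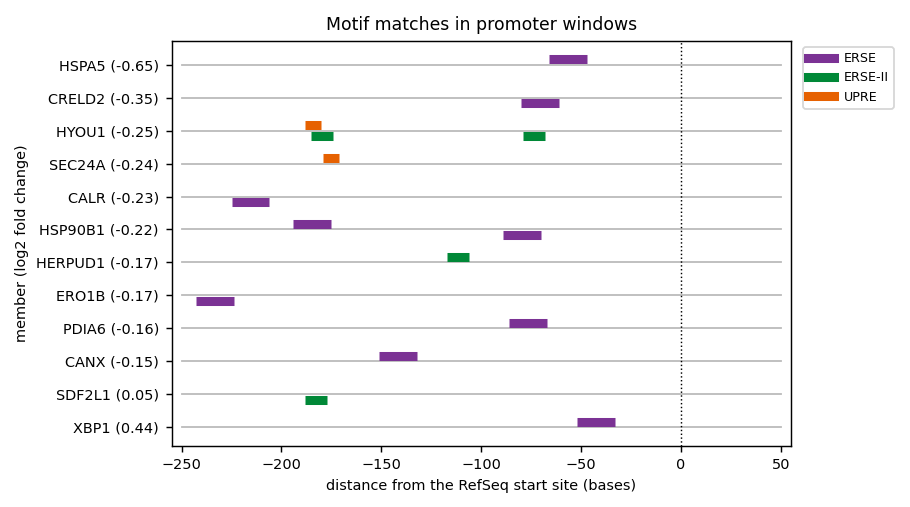
Matches to ERSE, ERSE-II and the XBP1-type element (UPRE) in RefSeq promoter windows of the 12 members that hold any, by distance in bases from the start site; bars above a line are on the strand of the gene and bars below it on the opposite strand. Members are ordered by log2 fold change, from HSPA5 at -0.65 to XBP1 at 0.44, and ERSE matches occur at both ends; CANX, with several starts, is drawn from the start that comes first in the table.

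Other genes of the same steps were read from 6 lists with 126 genes, none of them a member, of which 117 were tested. Of these 4 fell, 0 rose and 113 did not pass, at a median log2 fold change of -0.05. Over all genes 0.861% were called as lower and 0.417% as higher with rapamycin. At an unadjusted p under 0.05, 23 of the 117 and 21 of the 38 members stood out, against 2261 of all 14635 genes tested. Both rapamycin arrays lay below both controls for 48 of the 117 and above for 21, against 21.8% and 24.9% of all genes.

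Folding and glycan processing had 1 of 17 that fell, DNAJC1, a J-domain protein of the ER membrane. It had 8.67 and 8.68 log2 units with rapamycin and 9.03 and 9.21 in controls (log2 fold change -0.44, SE 0.09, adjusted p = 0.0478). Leaving out control replicate 1 took its adjusted p to 0.067, and leaving out control replicate 2 to 0.414. The list median was 0.01, with 6 genes at an unadjusted p under 0.05. Other disulfide genes had 0 of 13 called, with a median of 0.04 and 2 genes at an unadjusted p under 0.05, where the 6 members of that step all stood below 0. Other degradation genes had 0 of 18 called (median -0.02, 3 at an unadjusted p under 0.05). Translocation, signal peptidase and N-glycosylation had 0 of 26 called (median -0.03, 3 at an unadjusted p under 0.05). For COPII, COPI and retrieval 1 of 23 fell, TMED7, a cargo receptor of early secretory vesicles, at 9.082 and 9.003 log2 units with rapamycin and 9.462 and 9.537 in controls (log2 fold change -0.46, SE 0.08, adjusted p = 0.0327). TMED7 missed the threshold when either control array was left out, at adjusted p-values of 0.0831 (control replicate 1 out) and 0.262 (control replicate 2 out). That list had a median of -0.11, with 6 genes at an unadjusted p under 0.05, and 20 of 23 fold changes were negative.

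Transducers and regulators included 2 of 20 that fell, PPP1R15A and DDIT3. PPP1R15A (GADD34) directs a phosphatase to the initiation factor that EIF2AK3 phosphorylates, and so restores translation. It had 7.14 and 7.07 log2 units with rapamycin and 7.84 and 7.95 in controls (log2 fold change -0.79, SE 0.10, adjusted p = 0.00827). It missed the threshold without the mean-variance trend (adjusted p = 0.0556). DDIT3 (CHOP), a stress-induced transcription factor, had 6.12 and 5.67 with rapamycin and 6.70 and 6.84 in controls (log2 fold change -0.87, SE 0.16, adjusted p = 0.0391). DDIT3 missed it there too (adjusted p = 0.127), with no filter (adjusted p = 0.0988) and without control replicate 2 (adjusted p = 0.074). ATF4, the factor that stands above both, had overlapping groups and a log2 fold change of -0.08. TRIB3 also overlapped, at -0.10, and PPP1R15B stood at -0.04, and neither passed. CREB3L2 did not pass either, at a log2 fold change of -0.51 (adjusted p = 0.06), with both rapamycin arrays below both controls. The list median was -0.07, with 3 genes at an unadjusted p under 0.05. Housekeeping genes, measured for 9 of 10, gave no call and had a median of -0.09, with 2 at an unadjusted p under 0.05. Both rapamycin arrays lay below both controls for 5 of these 9 and above for 3, against 21.8% and 24.9% of all genes.

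**Figure D4:**
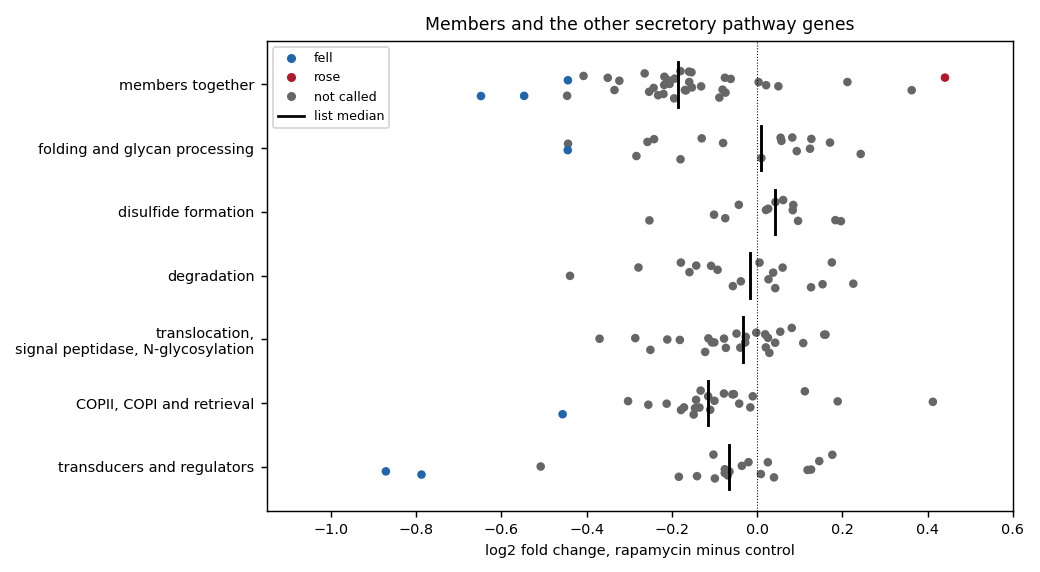
Log2 fold change (rapamycin minus control, x axis) of each tested gene in the members and in 6 lists of other secretory pathway genes, with a black bar at each list's median. The median of the members is -0.19, and those of the other lists run from -0.11 to 0.04; points are spread vertically only to separate them.

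**Figure D5:**
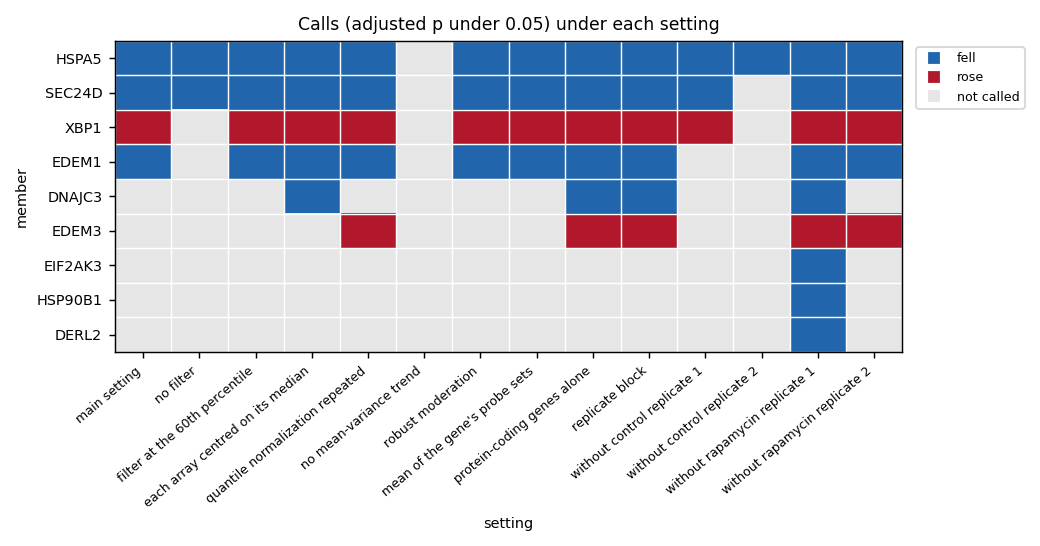
Calls at an adjusted p under 0.05 for the 9 members called in any of 14 settings (columns), shown as fell, rose or not called. HSPA5 was called in 13 of the 14 and no member without the mean-variance trend; EIF2AK3, HSP90B1 and DERL2 were called only without rapamycin replicate 1.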

How the data were processed

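The authors deposited normalized values on a log2 scale for each probe set. Their tools were RMA and Partek, of unstated version and role, per the submitters' processing notes. Values from 1.81 to 13.3 identified the scale. The genome build is not given in the sources used here. Probe sets carry Entrez gene numbers; the platform annotation named 24244 of 25582, and 1338 had no symbol. Probe sets with a mean below the 40th percentile (4.86) were left out. The probe set with the highest mean stood for a gene.

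Groups came from the agent label. Values were fitted with limma 3.58.1 in R 4.3.3 (group only, eBayes with a mean-variance trend, 2 residual and 7.27 prior degrees of freedom), two-sided, with Benjamini-Hochberg adjustment over 14635 genes. The median 95% interval half-width was 0.27, limited by the number of arrays. The code was tested on simulated data. Members and lists were chosen with earlier results of these data known. All members are named. Of each list of other secretory pathway genes, the rule was to name up to 4 called genes with the smallest p. ATF4, TRIB3, PPP1R15B and CREB3L2, none of them called, were named outside that rule. RefSeq promoter windows were searched for exact letters on both strands. Alternative filters, normalizations, moderation, probe set rules, gene classes, a replicate block and leaving out each array were tried.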

Additional observations from a re-analysis of the deposited data

How the results depend on the processing

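The main setting called 187 genes, with 3 members that fell and 1 that rose. With no filter 60 genes and 0 members that rose were called, and without the mean-variance trend 17 genes, 0 members that fell and 0 that rose (HSPA5 had an adjusted p of 0.0842 and SEC24D of 0.118). With each array centred on its median 317 genes were called, and the median was -0.22 over the members and -0.02 over all genes tested. In the main setting these medians were -0.19 and 0.01, so both moved down together. Repeated quantile normalization gave 2 members that rose (EDEM3 and XBP1) and a median of -0.17. With protein-coding genes alone 2 members rose. The arrays of a group share only a number with those of the other (correlation of same-numbered deviations -0.03); the replicate block gave 321 genes, 4 members that fell and 2 that rose. DNAJC3 was the added member there, with each array centred and with protein-coding genes alone. DNAJC1 and TMED7 missed the threshold with no filter (adjusted p = 0.105 and 0.0802) and without the mean-variance trend (0.178 and 0.159), and DNAJC1 after repeated quantile normalization (0.0591). Leaving out each array gave 76 to 1300 genes, 1 to 7 members that fell, 0 to 2 that rose, and a median from -0.20 to -0.16; the 76 came without control replicate 2 and the 1300 without rapamycin replicate 1. Scaling checks chosen after seeing the data gave 30 members (centred) and 26 (quantile) below both controls, and 3 above in each. The sign turned for 6 members that did not pass, 4 of them near 0 and ERO1B and SYVN1 at -0.17 and -0.18 in the main setting. With each array centred, DNAJB11 was at -0.0275 and SEC61A1 at -0.00994. Leaving out each array took DNAJB11 from -0.0192 to 0.026, SEC61A1 from -0.0628 to 0.105, SDF2L1 from -0.0457 to 0.145, ERO1B from -0.368 to 0.0337, SSR1 from -0.184 to 0.00621 and SYVN1 from -0.373 to 0.0125. The cause of these changes was not tested.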

Other observations

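The rapamycin arrays differed from each other more than the control arrays did for these genes. The median SD was 0.07 log2 units with rapamycin and 0.03 in controls over the 38 members, against 0.09 and 0.07 over all genes tested. Rapamycin replicate 2 lay below replicate 1 for 26 of the 38 members (68.4%), where it did so for 51.7% of all genes tested. Leaving out rapamycin replicate 1 took the median log2 fold change of the members to -0.20, and leaving out rapamycin replicate 2 to -0.16. The median over all genes tested was 0.01 in both settings. HSPA5 stood at -0.70 without rapamycin replicate 1 and at -0.60 without replicate 2, and EDEM3 at 0.30 and 0.42.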
